A study of Mus musculus with 12 samples.

Results

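Some stretches of DNA were listed as distal partners of many gene promoters at the same time. These hub bins are the subject here: 2-kb distal bins that were listed for at least 4 distinct captured genes on the same chromosome, each from more than 20 kb away. They were chosen by the contacts listed in the authors' deposited table, with alternative promoters of a gene counted as 1 gene. Of 67465 distal bins with a within-chromosome contact over 20 kb, 944 (1.40%) were hub bins. They held 4473 of 87735 contacts (5.10%) and joined 969 of 3374 captured genes (28.7%). Hub bins whose starts lay at most 10 kb apart were treated as 1 locus, which gave 604 loci.

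The contacts come from promoter Capture-C of mouse haematopoietic stem cells (HSCs), in which ligation products of chosen promoters are pulled out with oligonucleotide probes and sequenced. HSCs of B6129SF1 mice were sorted from fetal liver at embryonic day 14.5 or from bone marrow of adults aged 6 to 8 weeks. Both populations went through the same surface gate, lineage-negative, Sca1-positive, cKit-positive and CD135-negative, and the labels name no further stem cell marker. Each population had 4 libraries, 2 in each of 2 batches, but the authors' values are pooled per population and batch, so no value below carries an error between libraries. A further 4 samples of the HPC7 line were not analysed here.

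Promoters can lie close in the nucleus to other promoters as well as to enhancers. In gene-dense stretches several active promoters are often found near each other, and a single enhancer can be near several genes. A distal bin listed for many genes can therefore hold an enhancer, a promoter that is itself surrounded by genes, or a sequence with close copies elsewhere. Capture-C reports how often 2 fragments were joined and does not tell these kinds apart without other assays.

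The sequences below show the kinds of element at the bins of most genes. They are the 250 bases before the annotated start, from RefSeq (GRCm38.p6, whereas the contacts use mm9), 5′ to 3′ on the strand of the gene. Capitals mark matches on either strand of GGGCGG, which Sp-type factors bind, of CCAAT, which the factor NF-Y binds, of the ETS-type motif CCGGAAG, and of the core promoter element TATAAA. Kifc1 (a spindle motor), H2-Ke6, Msh5 (a meiotic relative of mismatch repair proteins) and Stk11 (the kinase LKB1) are shown because the captured fragment of each lies in a hub bin listed for 8 genes. Their windows are chr17:33890634-33890883 (minus strand), chr17:34028056-34028305 (minus strand), chr17:35046623-35046872 (minus strand) and chr10:80115545-80115794 (plus strand). Kifc5b, at chr17:26916841-26917090 (plus strand), is shown because it is a close relative of Kifc1 and gave the largest count of the Kifc1 bin.
Kifc1: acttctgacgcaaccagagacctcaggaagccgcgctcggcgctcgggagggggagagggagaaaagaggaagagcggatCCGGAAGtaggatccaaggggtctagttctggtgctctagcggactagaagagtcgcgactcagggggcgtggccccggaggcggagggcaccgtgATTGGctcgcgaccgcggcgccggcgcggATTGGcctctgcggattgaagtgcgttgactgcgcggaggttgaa
Kifc5b: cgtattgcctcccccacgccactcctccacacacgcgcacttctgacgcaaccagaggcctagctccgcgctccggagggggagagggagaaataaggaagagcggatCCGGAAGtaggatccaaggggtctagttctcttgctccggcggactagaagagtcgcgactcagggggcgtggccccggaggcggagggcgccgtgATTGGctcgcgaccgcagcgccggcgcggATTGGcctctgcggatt
H2-Ke6: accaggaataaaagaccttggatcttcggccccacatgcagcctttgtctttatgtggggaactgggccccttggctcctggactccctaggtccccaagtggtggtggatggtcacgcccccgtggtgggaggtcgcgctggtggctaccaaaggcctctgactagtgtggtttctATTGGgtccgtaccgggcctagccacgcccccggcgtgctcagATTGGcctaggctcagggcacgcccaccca
Msh5: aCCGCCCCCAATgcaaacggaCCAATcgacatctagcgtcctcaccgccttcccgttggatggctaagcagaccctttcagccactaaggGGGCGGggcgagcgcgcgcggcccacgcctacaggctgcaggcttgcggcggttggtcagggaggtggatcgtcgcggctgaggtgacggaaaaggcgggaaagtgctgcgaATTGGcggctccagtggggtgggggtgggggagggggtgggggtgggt
Stk11: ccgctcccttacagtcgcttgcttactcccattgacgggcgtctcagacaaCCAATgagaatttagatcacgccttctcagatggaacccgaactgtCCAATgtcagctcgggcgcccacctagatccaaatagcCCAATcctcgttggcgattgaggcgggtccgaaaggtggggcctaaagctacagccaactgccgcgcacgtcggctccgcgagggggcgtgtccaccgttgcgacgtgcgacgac
None of these 5 stretches holds TATAAA, and each holds CCAAT at least 2 times. The Kifc1 and Kifc5b stretches could be aligned with 200 identical bases (80.0% of 250), 22 mismatches and 56 gap bases, against 129 identical bases (51.6%) for Kifc1 and Msh5 and 122 (48.8%) for H2-Ke6 and Msh5.

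The heat-shock genes Hspa1a and Hspa1b, which encode the same inducible chaperone of the HSP70 family, are a second pair of copies. They are shown because both were captured and both were counted as genes joined at several of the hub loci with the most genes. Their windows are chr17:34972157-34972406 and chr17:34959239-34959488, both on the minus strand.
Hspa1a: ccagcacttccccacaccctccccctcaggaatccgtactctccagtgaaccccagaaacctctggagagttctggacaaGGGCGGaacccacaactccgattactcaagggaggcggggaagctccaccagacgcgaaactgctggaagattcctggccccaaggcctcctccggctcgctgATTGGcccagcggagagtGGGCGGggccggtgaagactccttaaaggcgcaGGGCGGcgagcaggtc
Hspa1b: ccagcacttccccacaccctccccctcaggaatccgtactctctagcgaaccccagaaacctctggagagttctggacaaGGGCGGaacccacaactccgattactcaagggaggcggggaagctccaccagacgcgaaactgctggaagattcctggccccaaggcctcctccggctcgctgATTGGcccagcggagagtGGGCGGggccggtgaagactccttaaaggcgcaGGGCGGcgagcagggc
They share 247 of 250 bases (98.8%) with 3 mismatches, and each holds GGGCGG 3 times. How the authors assigned reads to such copies is not given in the sources used here, so genes of near-identical families count as uncertain members of a hub.

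Hub bins gathered where captured genes lie densely. Chromosome 11 held 156 hub bins (16.5% of them, against 9.48% of captured genes) and chromosome 17 held 128 (13.6%, against 5.87%). The median hub bin had 9 captured genes within 500 kb, compared with 5 for bins listed for 2 or 3 genes and 3 for bins listed for 1 gene. A bin can be listed for 4 genes only where 4 promoters were captured, so the choice of promoters sets where hubs can be seen.

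The stretch of 1 Mb with the most hub bins was chr7:149000000-150000000, with 40 hub bins in 8 loci joining only 6 genes. It holds the imprinted growth factor gene Igf2, its neighbour H19 (an imprinted non-coding RNA) and Igf2as, together with Lsp1, Mrpl23 and Tnni2. Next came chr17:34000000-35000000 with 36 hub bins joining 36 genes and chr2:25000000-26000000 with 34 joining 14, and chr17:35000000-36000000 had 30 joining 23. Both stretches of chromosome 17 lie in the major histocompatibility complex, the cluster of antigen presentation genes. By gene, Igf2 was listed at 35 hub bins, H19 at 34, Lsp1 at 33, and Becn1 (autophagy) and Ramp2 (a receptor-modifying protein) at 30 each.

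Most hubs were small and local. Of the 604 loci, 442 were a single bin, and the longest comprised 13 bins. The promoters joined at a hub bin spanned a median of 354 kb, and in 901 of the 944 bins all lay within 1 Mb. Hub contacts were about as long as the others, with a median of 130 kb against 135 kb. Joined promoters lay on both sides of the bin at 699 hub bins (74.0%). Genes of both capture batches were joined at 829 hub bins, although each gene was captured in only 1 batch.

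Most hub bins were listed for just enough genes. Exactly 4 genes were listed at 648 bins, 5 at 187, 6 at 72, 7 at 22, 8 at 13, 9 at 1 and 10 at 1. Just outside the rule lay 2332 bins listed for exactly 3 genes. Their median summed count was 138, compared with 203 for bins of exactly 4 genes, 77.4% of them were open against 84.6%, and 39.3% carried an active promoter mark against 50.9%. Promoters less than 10 kb apart were counted apart, and 188 hub bins had fewer than 4 promoters that were more than 10 kb from each other. A further source of double counting was small, since 8 hub bins had fewer than 4 captured fragments, through fragments captured under 2 gene names.

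Of the marks of the bins, which come from other assays than the contacts, open chromatin and active promoters were the most frequent at hubs. The authors' table gives each bin a 0 or 1 for open chromatin (ATAC) and for 5 promoter and enhancer states in each population, and a bin was counted when either population had the mark. Open chromatin was marked at 827 of 944 hub bins (87.6%, exact 95% interval 85.3 to 89.6, against 54.1% of all bins). An active promoter was marked at 527 (55.8%, 52.6 to 59.0, against 13.1% of all bins). At bins listed for 1 gene the same shares were 50.3% and 9.49%. Intervals here and below are exact Clopper-Pearson intervals at 95% and express only counting error. Since neighbouring bins are alike, they are narrower than they should be.

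As a share of all bins, active enhancer marks did not follow the number of genes. They were present at 140 hub bins (14.8%, 12.6 to 17.3), against 14.9% of bins of 1 gene and 15.6% of all bins. These shares include bins with an active promoter mark, which were far more frequent among hub bins. An enhancer and no promoter mark was found at 126 hub bins, while 417 hub bins had no active promoter mark. Enhancer shares among bins without a promoter mark were not compared with those at bins of 1 gene. Primed enhancer marks were less frequent at hub bins (1.38%, 0.735 to 2.34, against 3.38% of all bins) than at bins of 1 gene (3.56%, 3.41 to 3.72). Bivalent promoters were marked at 1.38% of hub bins, 1.59% of bins of 1 gene and 1.7% of all bins, and poised enhancers at 0.212%, 0.859% and 0.832%. None of the marks was present at 10.3% of hub bins, compared with 46.1% of bins of 1 gene. Among bins of 6 or more genes, 98.2% were open and 67.0% carried an active promoter.

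**Figure D1:**
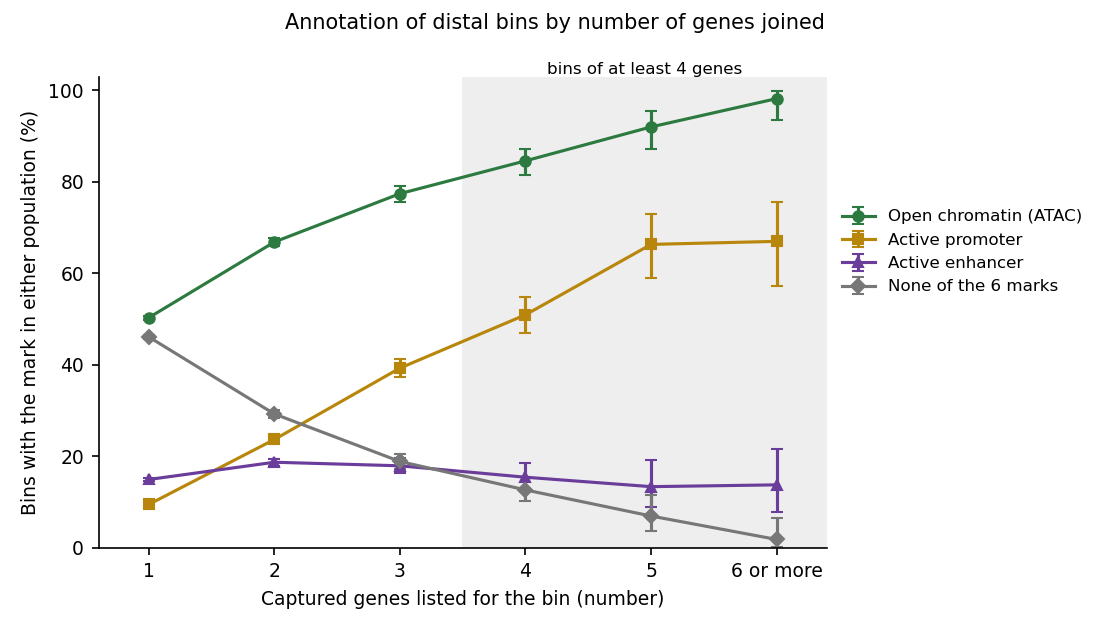
Share of distal bins with each mark in either population (vertical axis, %) against the number of captured genes listed for the bin (horizontal axis); points are shares and bars exact 95% intervals for counting error. Open chromatin runs from 50.3% at 1 gene to 98.2% at 6 or more and active promoter from 9.49% to 67.0%, while active enhancer stays between 13.4% and 18.7%.

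Part of the promoter mark was that of captured promoters themselves. A captured fragment lay inside 268 hub bins (28.4%), against 2.57% of bins of 1 gene. Of these hub bins 83.6% carried an active promoter, against 65.6% of bins of 1 gene with a captured fragment. Open chromatin was marked at 98.9% and 94.1% of them, so there the difference was small. Among the 676 hub bins without a captured fragment, 83.1% were open and 44.8% (41.0 to 48.7) carried an active promoter, against 49.2% and 8.01% at bins of 1 gene without one. There, active enhancer marks were present at 18.8% (15.9 to 21.9), against 15.2% (14.9 to 15.5). Over all bins, with or without a captured fragment, the difference in open chromatin and active promoter marks was present at each density of captured genes. With 0 to 9 captured genes within 500 kb, 87.2% of hub bins and 50.5% of bins of 1 gene were open, with 10 to 19 the shares were 88.0% and 46.7%, and with 20 or more they were 89.7% of 29 hub bins and 43.8%.

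The promoter windows of captured genes that lie in hub bins were rich in CpG, as were those of other captured genes. Of 259 such genes, 218 were matched to RefSeq promoters (275 windows of 300 bases, 50 of them after the start). Their median GC content was 60.3%, against 60.0% for other captured genes and 52.7% for all genes of the table. The median ratio of observed to expected CpG was 0.770, against 0.714 for other captured genes and 0.384 for all genes of the table. The motif CCGGAAG was found on either strand in 22.5% of the windows, against 14.3% of windows of other captured genes and 8.86% of all. The shares for GGGCGG were 64.0%, 59.5% and 35.7%, and those for CCAAT 43.3%, 36.5% and 37.4%. The shares for TATAAA were 6.91%, 7.88% and 13.6%, and those for AGATAA, a motif of the factors that include Gata1 and Gata2, were 6.55%, 6.99% and 11.2%. These are matches of letters, not shown to be bound.

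Most promoter and open chromatin marks of hub bins were present in both populations, and enhancer marks less often so. An active enhancer was marked in fetal cells only at 33 hub bins, in adult cells only at 23 and in both at 84. For active promoters the numbers were 19, 45 and 463, and for open chromatin 39, 29 and 759. The share of marked bins with the mark in 1 population only was thus 40.0% for enhancers (31.8 to 48.6), 12.1% for promoters (9.48 to 15.2) and 8.22% for open chromatin (6.44 to 10.3). At bins of 1 gene these shares were 47.7%, 19.9% and 26.2%. Contacts at the 33 bins with a fetal-only enhancer had a median centred log2 count ratio of -0.07, and those at the 23 with an adult-only enhancer one of -0.0059. At bins with these marks that were not hubs the medians were 0.07 and -0.18. A centred ratio here and below is log2 of fetal over adult counts, each with 1 added, minus the median of that batch over all within-chromosome contacts over 20 kb, so that values above 0 lean to fetal cells.

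Hub contacts were called in both populations more often than others. In the first batch this held for 945 of 2350 hub contacts (40.2%, 38.2 to 42.2, against 25.2% of all contacts of that batch), and in the second for 1121 of 2123 (52.8%, 50.7 to 54.9, against 36.7%). The difference was present at both short and long distance. Under 150 kb the shares were 49.5% and 58.4% in the first and second batch, against 31.0% and 38.3% of other contacts, and from 150 kb on they were 32.4% and 40.1%, against 19.9% and 28.6%. The calls are those that chose the bins, so these shares are a description. The call threshold was a score of 1.3 in the first batch and 2 in the second, and the median hub contact had 12 fetal and 12 adult counts in the first and 35 and 31 in the second.

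Many hub bins reached 4 genes in only 1 population. With the calls of 1 population alone, 392 of the 944 bins had at least 4 genes in fetal and 430 in adult cells. Of these, 173 had them in both, 219 in fetal cells only and 257 in adult cells only. A further 295 reached 4 genes only when the calls of both were added. All contacts were fetal-specific at 7 hub bins, adult-specific at 4 and called in both populations at 32. Fetal-specific and adult-specific contacts occurred side by side at 481 hub bins. Over all contacts of the first batch, 39.1% were called in fetal cells only, 35.7% in adult cells only and 25.2% in both. In the second batch these shares were 34.0%, 29.3% and 36.7%. Calls in 1 population only were thus frequent throughout and not particular to hub bins.

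Count ratios of hub contacts lay close to the batch median. Fetal counts were 52.8% of all hub counts, 193652 of fetal and 172784 of adult cells. Among 3586 hub contacts of at least 20 counts, 152 (4.24%) leaned more than 2-fold to fetal cells and 196 (5.47%) to adult cells, against 6.94% and 7.17% of all such contacts. Averaged over the contacts of a locus, the centred log2 ratio had a median of -0.05 over 416 loci with at least 4 contacts of 20 counts.

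Genes joined at 1 bin leaned to the same population only slightly more often than their sign frequencies give. Of 3970 pairs of genes of the same batch at a hub bin, 2082 (52.4%, 50.9 to 54.0) had centred ratios of the same sign, where the frequencies of the signs alone give 50.3%. At bins of 2 or 3 genes the share was 52.0%. The ratios of 1 gene at different hub bins matched in sign as often, in 52.4% of pairs. Pairs share genes, bins and libraries, so the intervals are too narrow.

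The batches offer a comparison in which the libraries and the promoters both differ. At 829 hub bins with genes of both batches, the mean centred ratio of the first-batch genes and that of the second-batch genes had the same sign at 451 (54.4%, 50.9 to 57.8), against 51.3% (50.1 to 52.6) at bins of 2 or 3 genes. At hub bins of at least 6 genes they matched at 64 of 102 (62.7%, 52.6 to 72.1), and at 55 of 94 (58.5%, 47.9 to 68.6) when only contacts of at least 20 counts were used. Pearson's r between the batch means over the 829 bins was 0.08. The means of the batches at a bin were thus only weakly related. Of 537 hub bins with at least 4 genes of 20 counts each, 68 (12.7%) had all genes on the same side. These were 31 towards fetal and 37 towards adult cells. Unrelated signs also give some bins of this kind, and the share they give was not computed.

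**Figure D2:**
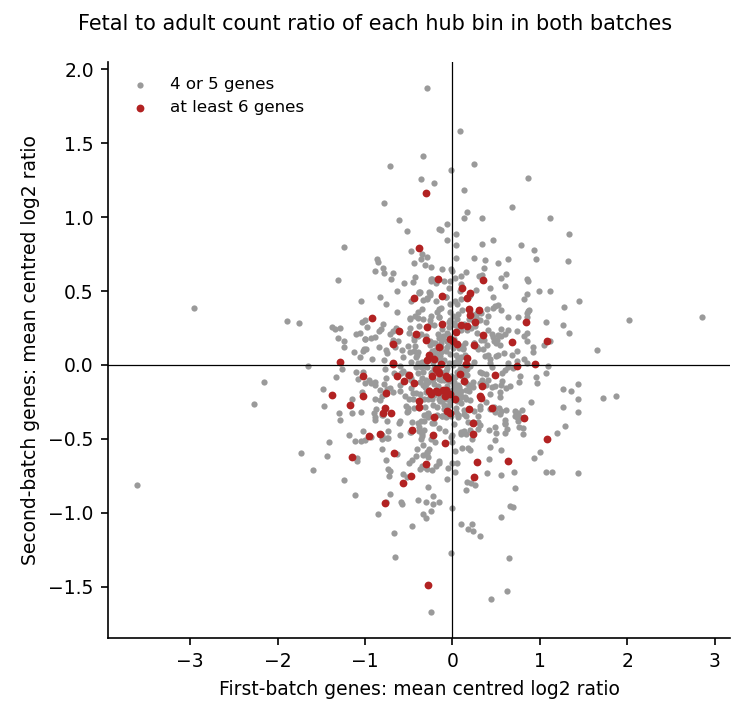
Each point is 1 of 829 hub bins with genes of both batches; axes give the mean centred log2 ratio of fetal to adult counts over its first-batch genes (horizontal) and over its second-batch genes (vertical), and red marks bins of at least 6 genes. The points fill all 4 quadrants and the signs match at 451 bins (54.4%).

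The single bin listed for the most genes was chr17:35138001-35140001 in the class III part of the histocompatibility complex, with 10 genes. It was open and marked as an active promoter in both populations, and no captured fragment lay in it or in the other bin of its locus. The joined genes encode chaperones (Hspa1a, Hspa1b), the cytokine TNF (Tnf), a transcription elongation factor subunit (Rdbp), a proton pump subunit (Atp6v1g2), the macrophage protein AIF1 (Aif1) and others, from 29.8 to 235 kb away. Hspa1a had 162 fetal and 118 adult counts there. Hspa1b had 121 and 83. The gene 1110038B12Rik had 95 and 63.

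The other genes at that bin had fewer counts. Ddah2, a dimethylarginine hydrolase, had 52 fetal and 61 adult counts, Atp6v1g2 51 and 28, and Msh5 39 and 31. The promoters of Aif1 had 11 and 7 and 12 and 8, while Rdbp had 7 and 11, Stk19 4 and 8 and Tnf 7 and 13. The centred ratio lay above 0 for 7 of the 11 contacts and below 0 for 4, between -0.99 and 0.61, so the genes of this bin did not lean the same way. In the second batch 4 of 5 contacts leaned to fetal cells, and in the first 3 of 6.

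Of 11 loci with at least 9 genes, all but 2 lay in or beside the histocompatibility region of chromosome 17. The locus with the most genes, 12 over 4 bins at chr17:34160001-34176001, holds the promoter of H2-Ke6 and was marked as an active promoter at 3 bins in both populations. Joined to it were Tap1 and Tap2 (the peptide transporter), Tapbp (tapasin, which loads peptides on class I molecules), Psmb8 (an immunoproteasome subunit), H2-DMa, H2-DMb1 and H2-Oa (class II peptide exchange), and Rps18, Kifc1, Cd320, H2-Ke2 and Gm15821. Rps18 had 123 fetal and 107 adult counts at the locus, Tap2 81 and 67, and H2-Oa 64 and 55. Fetal counts were 52.1% of the locus total (48.8 to 55.4), and the centred ratios ran from -1.94 to 0.75 with a mean of -0.05. Antigen presentation genes thus shared a partner locus with a ribosomal protein gene and a spindle motor gene.

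Further loci of chromosome 17 joined overlapping sets of genes. The locus chr17:35250001-35262001 joined 11 genes with a mean centred ratio of -0.01. Those at chr17:35030001-35052001, chr17:35182001-35198001 and chr17:35272001-35280001 joined 10 genes each, with means of 0.05, 0.08 and 0.08. Hspa1a and Hspa1b, captured from nearly identical promoters, were joined at all 4 of them. At the bin chr17:35032001-35034001, in the locus that starts at chr17:35030001, all 7 contacts leaned to fetal cells, from 0.09 for Hspa1b (60 fetal and 48 adult counts) to 1.63 for Lsm2 (23 and 6), which encodes a protein of the splicing machinery. The locus chr17:35372001-35380001, which holds the promoter of Atp6v1g2, joined 9 genes with a mean of -0.08. The bin chr17:34136001-34138001, a locus of its own that holds the promoter of the class I gene H2-K1, also joined 9 genes, among them Tap1, Tap2, Tapbp and Rps18. It had 187 fetal and 252 adult counts (42.6% fetal, 37.9 to 47.4) and a mean of -0.62, with 1 of 8 contacts above 0, so it leaned to adult cells more than the other loci of at least 9 genes. The promoter mark of this bin was present in fetal cells only.

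At the bin that holds the Kifc1 promoter, nearly all counts came from a gene with a similar promoter. At chr17:34026001-34028001, 8 genes were listed and Kifc5b alone gave 13357 of 13758 fetal and 10804 of 11157 adult counts, from 6973 kb away. In the opposite direction, Kifc1 gave 1175 fetal and 1009 adult counts at the hub bin chr17:27054001-27056001, also 6973 kb away. The promoter stretches of these 2 genes are those printed above with 80.0% identical bases, and whether reads of the copies were told apart was not tested. Without Kifc5b the Kifc1 locus kept 8 genes, 523 fetal and 537 adult counts, 49.3% fetal (46.3 to 52.4), and its mean centred ratio was -0.48, against -0.40 with it. The genes kept include Phf1, with 21 fetal and 27 adult counts from 6957 kb away, nearly as far as Kifc5b. Whether the Phf1 contact also depends on reads of the copies was not tested. Rps18, captured 63.7 kb away, had 33 fetal and 71 adult counts at the locus, and Tapbp, which lies nearest of the joined genes, 215 and 220.

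Counts of this size were rare. The 10 hub contacts of at least 1000 counts, listed in 9 loci, held 30.0% of all hub counts. Besides Kifc5b and Kifc1 they were contacts of C1ra (21805 fetal and 22337 adult counts, 57.9 kb), Pdpr (11756 and 10522, 50.3 kb), Slfn8 (2680 and 1182), Slfn9 (2674 and 1314), Zfp874b, the class I gene H2-T23 and AI662270 with 2 contacts. All 10 were called in both populations. Whether the contacts of C1ra, Slfn8, Slfn9, H2-T23 and the others come from reads of close copies was not tested. Without them 939 of the 944 hub bins remained.

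Of the pair of loci in this group that lay on other chromosomes, that at chr7:133836001-133850001 joined 9 genes over 5 bins. All 5 were open in both populations, 2 carried an active enhancer mark in both and 1 an active promoter mark. The nearest captured promoter, that of Sult1a1, was 15.8 kb away. The joined genes include Aldoa (the glycolytic enzyme aldolase), Ppp4c (a phosphatase), Ino80e (chromatin remodelling), Tufm (mitochondrial translation), Cln3 (a lysosomal membrane protein), Nupr1 (a stress-response protein) and Spn (the leukocyte surface protein CD43).

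At this locus Ypel3 had 364 fetal and 213 adult counts, Aldoa 192 and 147, and Gdpd3 149 and 118. Nupr1 had 116 and 112, Ppp4c 116 and 92 and Cln3 114 and 96. Tufm had 46 and 32, Ino80e 33 and 23 and Spn 10 and 5. Every gene had more fetal than adult counts, as fetal counts were the higher over all contacts too, and the mean centred ratio was 0.15, with 21 of 30 contacts of at least 20 counts above 0. Fetal counts were 57.6% of the total (55.4 to 59.8), against 53.3% over all contacts.

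The remaining locus of this rank, chr11:100940001-100960001, lay 20.8 kb from the promoter of Tubg1 (gamma-tubulin) and joined 9 genes over 8 bins, 5 of them with an active promoter mark in both populations. They include Becn1, Ezh1 (a histone H3 lysine methyltransferase), Stat5b (a cytokine signal transducer), Psme3 (a proteasome activator) and Ptrf (a coat protein of caveolae). Ccdc56 had 177 fetal and 137 adult counts, Ezh1 147 and 132, and Ramp2 131 and 98. Fetal-specific contacts numbered 19, adult-specific 15 and those called in both 11. Most contacts of this locus were thus listed for only 1 population, as were most of all contacts. Over all contacts, 25.2% of the first and 36.7% of the second batch were called in both. The mean centred ratio of the locus was 0.11, with single contacts from -2.23 to 1.29.

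**Figure D3:**
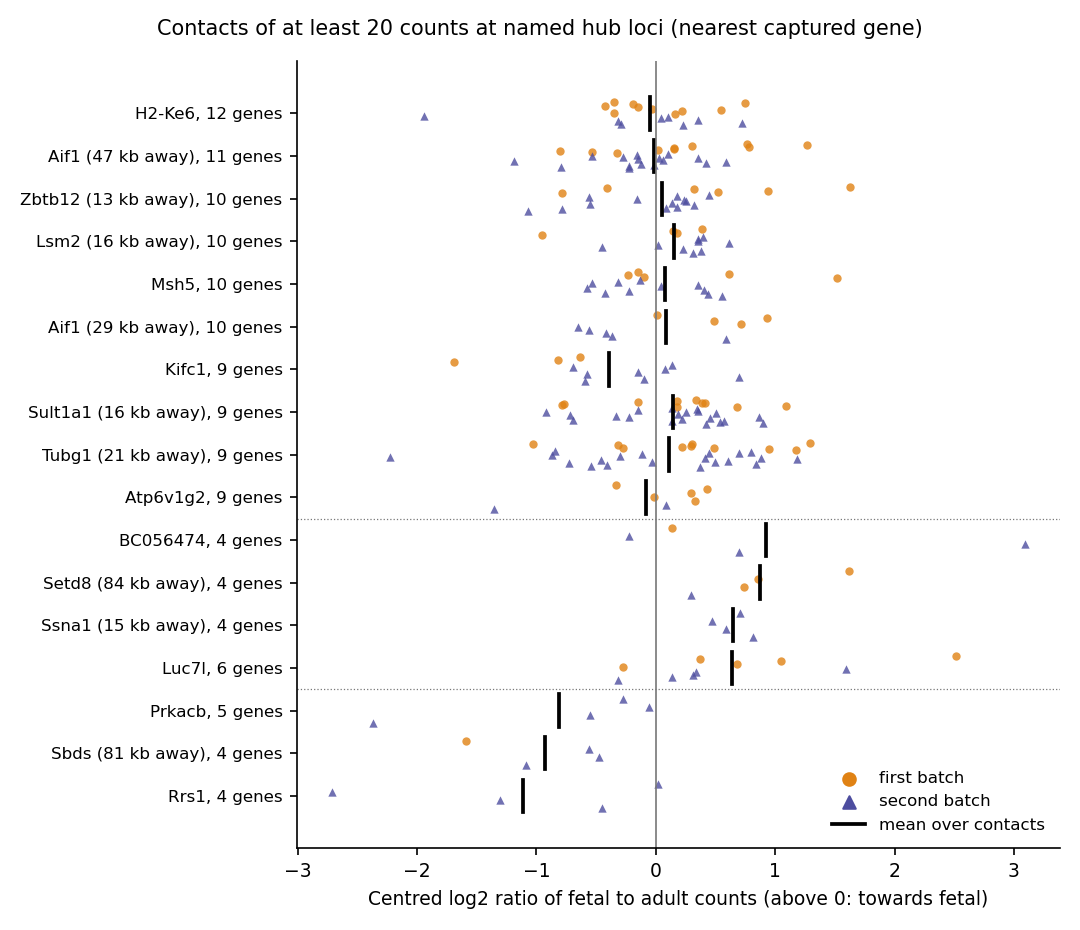
Centred log2 ratio of fetal to adult counts (horizontal axis; above 0 leans to fetal) for each contact of at least 20 counts at 10 of the 11 loci with at least 9 genes (that of H2-K1, with the fewest counts, is left out), the 4 with the highest and 3 of the 4 with the lowest mean ratio (rows named by the nearest captured gene, with its distance where it lies outside); orange circles are first-batch and violet triangles second-batch contacts, and black bars the means. The first 10 loci have means between -0.40 and 0.15, and their contacts lie on both sides of 0.

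The 4 loci that leaned most to fetal cells had 134 to 472 counts in all. Locus means are taken over contacts of at least 20 counts. At chr8:87604001-87606001, which holds the promoter of BC056474, the mean centred ratio over 4 genes was 0.92, but Gpt2 (an alanine transaminase) with 19 fetal counts and 1 adult count set most of it, and without Gpt2 the mean was 0.20. At chr5:124804001-124806001 all 4 genes leaned to fetal cells, with a mean of 0.88. Eif2b1 (a translation initiation factor subunit) had 16 fetal and 4 adult counts, Snrnp35 17 and 8, Tmed2 23 and 12 and Rilpl1 32 and 22. The bin was open in both populations, with no promoter or enhancer mark, 83.8 kb from the promoter of Setd8.

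At chr2:25144001-25146001 all 4 contacts were fetal-specific, and the bin carried no mark in either population. Tubb2c (a beta-tubulin) had 32 fetal and 15 adult counts, 2010317E24Rik 41 and 21, Npdc1 29 and 16 and Noxa1 25 and 15. Their expression did not go one way: FPKM was 97.3 in fetal and 53.2 in adult cells for Tubb2c but 0.0781 and 6.42 for Npdc1. The locus chr17:26380001-26390001, which holds the promoter of the splicing factor gene Luc7l, had a mean of 0.64, and at its bin chr17:26380001-26382001 all 5 genes leaned to fetal cells, led by Arhgdig with 45 fetal and 12 adult counts.

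Of the 4 loci that leaned most to adult cells, 3 are described. The locus chr1:9534001-9536001, with the promoter of Rrs1 (ribosome biogenesis), had a mean of -1.11, and of -0.58 without Pcmtd1 (4 fetal and 27 adult counts, 2456 kb away). At chr5:130646001-130648001, 81.1 kb from the promoter of Sbds (ribosome maturation), all 4 genes leaned to adult cells with a mean of -0.93. At chr3:146474001-146476001, with the promoter of Prkacb (a catalytic subunit of protein kinase A), all 5 genes did. The mean over the 4 contacts of at least 20 counts was -0.81. Eltd1, with 0 fetal and 10 adult counts from 4626 kb away, was not in that mean. Syde2, with 9 fetal and 43 adult counts there, had a ratio of -2.37 and set much of the mean. Prkacb had 58 and 60 and Ssx2ip 35 and 44, whereas Spata1 with 95 and 84 lay close to the batch median.

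Of 53 genes of a haematopoietic list, 46 were captured and 8 of these (17.4%, 7.82 to 31.4, against 28.7% of all captured genes) were joined at hub bins, among them Egr1, Hoxa9, Igf2, Klf1, Lyl1, Nfe2 and Tcf3. They were joined at 36 loci. The homeobox genes of the Hoxa cluster, which mark HSCs and pattern the embryo, met at chr6:51118001-51130001. This locus comprised 6 bins about 1 Mb from the cluster, with an active enhancer mark at 4 bins in fetal and 2 in adult cells, open chromatin at 5 and 6, and only 2 captured genes within 500 kb.

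At the Hoxa locus Hoxa9 had 232 fetal and 218 adult counts, Hoxa7 150 and 124, Hoxa10 127 and 185 and Hoxa3 60 and 62. Cbx3 (heterochromatin protein 1 gamma) had 39 and 34 and Skap2 (an adaptor protein of leukocytes) 29 and 31. Of 49 contacts 23 were called in both populations, and fetal counts were 49.5% of the total (46.8 to 52.3), against 54.2% over all contacts of the first batch, which held every gene of this locus, and 51.5% over its hub contacts under 1000 counts. Hoxa10 was the lowest of the joined Hox genes in its fetal share. At the bin chr6:51122001-51124001, its 2 promoters had 16 fetal and 37 adult and 12 fetal and 13 adult counts.

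A second locus of these genes, chr6:51710001-51720001, also carried active enhancer marks. All 6 contacts at its bin chr6:51710001-51712001 leaned to adult cells, though each rested on at most 18 counts. Snx10 (a sorting nexin) had 1 fetal and 9 adult counts from 1 promoter and 5 and 13 from the other, Hoxa10 3 and 13, Skap2 5 and 11, Hoxa3 5 and 9 and Cbx3 9 and 9. At the other bin of the locus Hoxa7 had 17 fetal and 5 adult counts and Hoxa9 11 and 4.

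Klf1, the master regulator of red cell genes, and Lyl1, a bHLH factor of HSCs, met at chr8:87368001-87372001, 8.5 kb from the promoter of Farsa. This locus of 2 bins joined 8 genes and had an active enhancer mark at 1 bin in both populations. At the bin chr8:87370001-87372001 Klf1 had 71 fetal and 62 adult counts, Syce2 36 and 51, Ier2 (an immediate early gene) 15 and 19 and Lyl1 15 and 23. Asna1 had 24 and 13 and Rnaseh2a (a subunit of the enzyme that cuts RNA out of DNA) 13 and 7. The mean centred ratio of the locus was -0.20, with 3 of 10 contacts of at least 20 counts above 0. Klf1 FPKM was 24.0 in fetal and 2.40 in adult cells, so its expression differed between the populations far more than its counts here.

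Klf1 was also joined at chr8:87488001-87516001, a locus of 7 open bins that holds the promoters of Prdx2 (a peroxiredoxin) and Rnaseh2a. There Asna1 had 276 fetal and 259 adult counts, Klf1 211 and 145 and BC056474 161 and 111. The mean centred ratio was 0.09, and 16 of 26 contacts leaned to fetal cells. Tcf3, which encodes the E2A factors, was joined at chr10:79620001-79632001, the locus of the Cirbp promoter, with 12 fetal and 4 adult counts. Stk11 had 180 and 156 counts at that locus and Dazap1 86 and 53. At chr10:80084001-80094001 Tcf3 had 11 fetal and 14 adult counts. All 7 contacts of the bin chr10:80084001-80086001, which was not among the Tcf3 partners, leaned to adult cells, from -0.23 to -2.05. At the Tcf3 bin chr10:80092001-80094001 the other genes leaned to fetal cells: Dazap1 had 9 fetal and 2 adult counts, Izumo4 31 and 12 and Mbd3 14 and 6. The mean centred ratio of the locus was 0.12, with 2 of 6 contacts of at least 20 counts above 0.

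Among hub bins with an enhancer and without a promoter mark, of which there were 126 in 95 loci, the following were picked by their number of genes once the values had been looked at. The bins chr7:133844001-133846001 and chr7:133846001-133848001 joined 8 genes each. Bins of 7 genes lay at chr11:106020001-106022001 (enhancer mark in fetal cells only), chr11:106280001-106282001, chr3:90096001-90098001 and chr8:87246001-87248001. The bins on chromosome 11 were joined by Ddx5 (an RNA helicase), Psmc5 (a proteasome ATPase) and Smarcd2 (a chromatin remodelling subunit), with 403 fetal and 377 adult counts in all at the first. That on chromosome 3 had 291 and 199 counts, with Rps27 and Ilf2 among its genes. The bin on chromosome 8, in which the fragment of G430095P16Rik lies, had 362 and 257, with Klf1, Nfix and Farsa among its genes.

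Expression comes from another assay than the rule, and genes joined at hubs were more highly expressed than other captured genes. Their median FPKM was 8.24 in fetal and 7.76 in adult cells, against 3.72 and 4.73. At least 1 FPKM in both populations was reached by 793 of 969 (81.8%, 79.3 to 84.2, against 75.7% of all captured genes and 73.2% of those not at hubs). In the first batch the share was 88.6% against 81.3% and in the second 75.8% against 66.2%.

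Hub genes also leaned to higher expression in fetal cells. Among genes with a summed FPKM above 1, 540 of 953 at hubs were higher in fetal cells (56.7%, 53.4 to 59.8, against 46.3% of all captured genes), compared with 970 of 2306 others (42.1%, 40.0 to 44.1). Within the first batch the shares were 54.4% and 43.1%, and within the second, whose genes the authors' table all marks as differentially expressed, 58.6% and 41.2%. Where 5 to 9 other captured genes lay within 500 kb, they were 59.5% (55.1 to 63.9) and 50.6% (45.0 to 56.3), and where 0 to 4 did, 53.8% (47.6 to 60.0) and 40.8% (38.6 to 43.0). Among genes of at least 10 FPKM in both populations they were 73.4% (68.5 to 77.9) and 60.2% (55.8 to 64.4). The direction was the same in each of these classes, and the intervals did not overlap among genes of at least 10 FPKM, in either batch, or with 0 to 4 neighbours. Split by batch and density together, they overlapped in 3 of 4 classes, all but the second batch with 0 to 4 neighbours (55.0%, 46.4 to 63.4, against 39.3%, 36.4 to 42.3).

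Markers of other cells moved with the stage in the same FPKM values. All 5 captured erythroid markers of 6 listed were higher in fetal cells (summed FPKM 53.9 against 8.96), as were all 4 macrophage markers of 6 (24.6 against 1.18) and all 4 granulocyte markers of 5 (80.6 against 6.11). No marker was at 0 in either population. Of 9 captured HSC and progenitor markers of 11 listed, 2 were higher in fetal cells (212 against 332 in sum), with Kit at 32.8 and 50.5 and Gata2 at 21.9 and 57.3 FPKM. In bulk samples fewer cells of a type and less RNA per cell cannot be told apart, and the part of other cells in the expression ratios was not tested.

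Genes joined at 1 hub bin shared the direction of their expression ratio somewhat more often than neighbours with no bin in common. Of 2737 pairs, 1545 (56.4%, 54.6 to 58.3) were both higher in the same population. Within 847 kb, the 95th percentile of hub pairs, the share was 56.3% (54.4 to 58.3) for hub pairs. For all pairs of captured genes within that separation it was 53.3% (52.3 to 54.3). For those that shared no bin it was 50.8% (49.4 to 52.3). Hub pairs were closer together, with a median separation of 214 kb. Within 50 kb the shares were 59.4% (54.4 to 64.2) and 61.5% (51.7 to 70.6), from 100 to 200 kb 58.8% (54.5 to 62.9) and 51.7% (46.3 to 57.1), and from 400 to 1000 kb 54.6% (50.6 to 58.5) and 51.0% (49.4 to 52.5). At matched separation the intervals overlapped in every class.

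**Figure D4:**
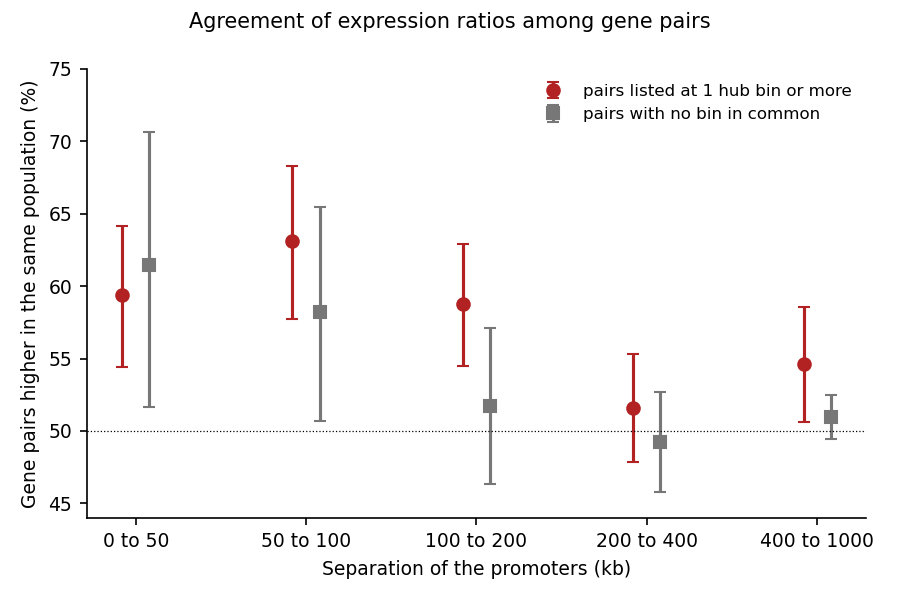
Share of gene pairs whose expression was higher in the same population (vertical axis, %, which does not start at 0) by separation of their promoters in kb (horizontal axis), for pairs listed at a hub bin (red circles) and pairs with no bin in common (grey squares); bars are exact 95% intervals for counting error and the dotted line is 50%. The red points lie above the grey ones from 50 kb on, and the bars overlap in every class.

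The loci with the most uneven expression were those of imprinted and of class I genes. Over the 588 loci with at least 4 expressed genes, all expressed genes were higher in fetal cells at 69 and in adult cells at 31. Of single expressed genes at hubs, 56.7% were higher in fetal cells. How many loci of either kind unrelated genes would give was not computed. At chr7:149716001-149726001, the locus of the Mrpl23 promoter with an active enhancer mark at 2 bins in both populations, the mean log2 expression ratio (each FPKM plus 1) was 3.11. H19 had an FPKM of 209 in fetal and 2.15 in adult cells and Igf2 36.4 and 0.798, against 39.8 and 22.3 for Lsp1 and 3.60 and 0.997 for Tnni2.

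The counts at this locus followed the same direction but much less. H19 had 184 fetal and 144 adult counts over its contacts there, Igf2 119 and 84, Lsp1 229 and 149 and Tnni2 227 and 176. Fetal counts were 58.2% of the total (55.6 to 60.8), and the mean centred ratio was 0.26 with 16 of 23 contacts above 0. At the neighbouring locus chr7:149682001-149702001, with the same 5 genes, fetal counts were 51.7% (49.0 to 54.4) and the mean was -0.05. At chr7:149554001-149556001, a bin with no mark, all 4 contacts were fetal-specific, with 41 fetal and 21 adult counts for Lsp1, 11 and 3 for H19, 11 and 4 for Mrpl23 and 8 and 2 for Igf2. Neighbouring loci of the same genes thus differed in their lean.

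At the other end, 3 bins of the histocompatibility region joined the class I genes H2-Q4, H2-Q6 and H2-Q7 with 1 further gene each. FPKM was 3.71 in fetal and 68.1 in adult cells for H2-Q4, 0.0781 and 59.8 for H2-Q6 and 0.0969 and 46.0 for H2-Q7. At chr17:35400001-35402001, near the class I gene H2-D1, H2-Q4 had 7 fetal and 20 adult counts, H2-Q6 4 and 13 and H2-Q7 0 and 11, while Aif1 had 22 and 7. At chr17:35652001-35654001, with an active promoter mark in adult cells only, H2-Q6 had 12 and 21, H2-Q7 8 and 18 and H2-Q4 8 and 6. At chr17:35860001-35862001 H2-Q4 had 5 and 1, H2-Q6 6 and 3 and H2-Q7 2 and 7, so the direction differed between bins. The H2-Q genes are close copies, and without them a single gene was left at each of these bins.

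**Figure D5:**
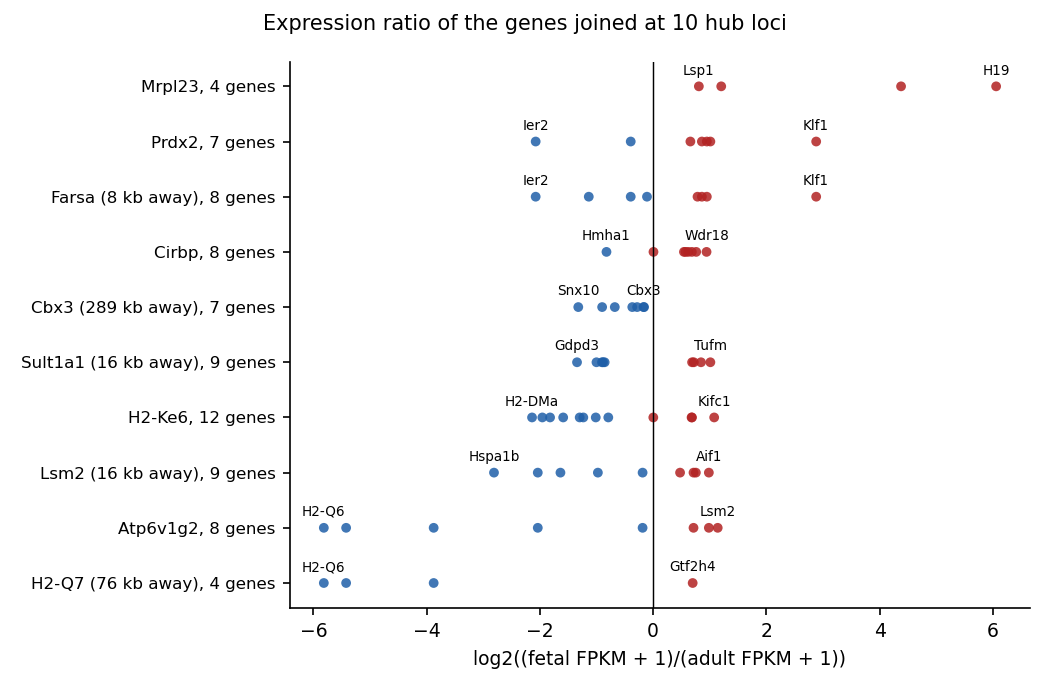
Log2 ratio of fetal to adult FPKM, each plus 1 (horizontal axis), for every gene with a summed FPKM above 1 joined at 10 of the named loci (rows, named by the nearest captured gene); red points are genes higher in fetal and blue points genes higher in adult cells, and the lowest and highest gene of each row are named. The Mrpl23 row runs from Lsp1 (0.81) to H19 (6.06), the Hoxa row (Cbx3) lies below 0 throughout, and most other rows cross 0.

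Expression at most large hubs was mixed. At the locus of 12 genes, 4 were higher in fetal cells. Kifc1 had an FPKM of 13.5 and 5.88 and H2-Ke2 54.8 and 33.7, whereas Tap1 had 10.8 and 40.6, Psmb8 16.0 and 39.0 and H2-DMa 1.87 and 11.6. At chr7:133836001-133850001, 4 of 9 genes were higher in fetal cells, among them Aldoa (132 and 73.3), and 5 in adult cells, among them Ypel3 (14.2 and 27.4), which had the most counts and the highest fetal share of any gene there with over 100 counts. At the Hoxa locus all 7 genes were higher in adult cells, from Cbx3 (97.6 and 109) to Snx10 (6.40 and 17.5).

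Over all hub contacts, the count ratio and the expression ratio of the gene had the same sign in 2273 of 4399 (51.7%, 50.2 to 53.2), against 51.4% of other contacts. Among genes that the authors' table marks as differentially expressed the share was 52.2% (50.4 to 54.0), against 52.0%. By batch, the shares were 51.5% (49.4 to 53.6) at hubs and 50.3% elsewhere in the first, and 51.9% (49.7 to 54.0) and 52.6% in the second.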

How the data were processed

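The authors deposited 1 table of 89545 significant contacts between captured promoters and 2-kb distal bins, with whole-number counts pooled per population and batch. The deposited scores (caller LiMACC) were read as −log10 p-values, with 0 for a contact that was not called. The deposited FPKM values, given per promoter, and the 0 or 1 marks per bin describe other assays, whose processing is not stated. Trim Galore 0.41, Bowtie2 2.2.2 and mm9 are named per the submitters' processing notes. The number of columns of values left unassigned was 0.

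Left out were 1070 contacts between chromosomes and 740 at 20 kb or less. For pairs of genes, counts were summed over the promoters of a gene at a bin. Members and lists were chosen with earlier results of these data known. Named loci followed a rule: the 10 with the most genes (ties by counts, which left out 1 of 5 loci of 9 genes, described after its values were seen), the 4 highest and 4 lowest mean count ratios, the 3 highest and 3 lowest mean expression ratios, and loci of a haematopoietic list, the first 6 in detail. A few of these results are not reported here. No p-value is given, because the table holds no values per library. Alternatives varied the minimum of genes, distance, score, pseudocount, centring and filters. The pair statistic was tested on simulated data. RefSeq promoters were matched by symbol for 2733 of 3374 captured genes (261 by synonym) and aligned with Biopython 1.88. Tables were computed in Python 3.11.15 with pandas 2.3.3 and SciPy 1.17.1.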

Additional observations from a re-analysis of the deposited data

How the results depend on the processing

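The number of hub bins depended on how a hub was defined. It was 944 as reported, 296 with at least 5 genes, 273 with the score 1 unit higher, 392 with fetal calls alone, 430 with adult calls alone and 2829 when each bin was merged with both neighbours. With at least 5 genes, 94.3% of hub bins were open and 66.6% carried an active promoter, and without a captured fragment in the bin the shares were 83.1% and 44.8%, with active enhancers at 18.8%. The share called in both populations was 49.5% and 58.4% under 150 kb in the first and second batch, and 32.4% and 40.1% from 150 kb on. Pairs of genes with count ratios of the same sign made 55.0% without centring. In all, 15 alternatives moved a value beyond its interval or, for counts, by more than 1.5 times, and 23 did not. The following alternatives were chosen after seeing the data: promoters within 10 kb as 1 (756 hub bins), contacts of at least 1000 counts left out (939), and expression pairs over 100 kb apart (54.7%). No paired analysis was possible because the deposited columns are pooled per population and batch and carry no replicate numbers, and leaving out a library was not run for the same reason. Counts of 12 per contact in the first batch limit what a single ratio can show.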
